A study of Rattus norvegicus with 9 samples.

Results

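Lung fibroblasts of rat pups at postnatal day 7, when new septa are growing into the air spaces to form alveoli, were compared with those at postnatal day 2, before septation. The 6 samples were chosen by their titles from the 9 of the series, 3 for each of these days, and each was a pool from a single litter (cells of 5 pups at day 2, of 4 pups at day 7). The labels name no strain, sex, genotype or treatment. The other 3 samples, from day 21, after septation, pools of 4 pups each, entered the fit so that all 9 arrays gave the estimate of spread, and their mean is given beside some genes. The fibroblasts were a crude preparation: lung cells freed by enzymes were left to settle on plastic in medium with serum, and what stuck was collected at once, with no sort or culture step.

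Secondary septa are raised by interstitial fibroblasts that divide, lay down elastic fibres and exchange signals with the epithelium and the capillaries. Fibroblast growth factors, platelet-derived growth factor, retinoids and Wnt ligands are known to act in this step. A cell that grows must also import amino acids, charge transfer RNAs with them and make NADPH for lipid synthesis and for the thiol systems that remove oxidants. The genes of these signalling and metabolic families are described below, each as a log2 probe set intensity, so that a difference of 1 is a 2-fold change. Levels of different genes are not comparable on this scale. Errors are SEs from limma with n = 3 arrays per day, and a gene is called where its Benjamini-Hochberg adjusted p over all 31042 probe sets is under 0.05.

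The median probe set intensity lay between 37.9 and 50.4 on the 6 arrays. The actin control probe sets gave a 3′ minus 5′ log2 difference, a gauge of RNA integrity, of 1.18 on day 7 replicate 3. On the other day 2 and day 7 arrays it was 0.51 to 0.93. For Gapdh the difference was 0.25 on day 7 replicate 3 and -0.11 to 0.16 on the others. The part of RNA integrity in the results was not tested. Correlations across probe sets were 0.978 to 0.988 within a day and 0.958 to 0.974 between day 2 and day 7, and having 3 arrays per day limits how precisely any gene is known. Fibroblast markers were strongly expressed, with list means of log2 10.16 to 10.52 at day 2 and 10.38 to 10.44 at day 7, and limma called 0 of 10 (1 was higher at an unadjusted p under 0.05). Other cells were present too, and the counts of called markers that follow stand against 7.02% of all genes called higher and 4.41% called lower. Macrophage markers averaged 9.15 to 9.39 at day 2 and 7.44 to 8.29 at day 7, lowest on day 7 replicate 3, and 19 of 27 were called lower. None was near 0, but Cd163, a receptor of resident macrophages, lay at or under log2 4.33 on all 6 arrays, near the low end of all values (4.25, their 25th percentile). Endothelial markers averaged 6.16 to 6.46 and then 6.60 to 6.86 (3 of 18 called higher), and smooth muscle and pericyte markers 7.10 to 7.33 and then 7.63 to 7.73 (3 of 18 higher, 1 lower). Cartilage markers averaged 5.77 to 6.60 and then 4.29 to 4.74, with 7 of 15 lower, and mesothelial markers 5.66 to 5.88 and then 4.94 to 5.41, with 2 of 9 lower. Neutrophil and mast cell markers averaged 5.18 to 5.77 and then 4.34 to 4.76, with 5 of 15 lower, and genes of ciliated cells 5.23 to 5.41 and then 5.53 to 5.67, with 1 of 14 higher. Airway and alveolar epithelial markers averaged 6.64 to 6.82 and then 6.12 to 6.61, with 1 of 19 lower, the club cell secretoglobin Scgb1a1. Lymphocyte markers averaged 4.36 to 4.75 and then 4.30 to 4.64, with a median change of -0.02. Of these 1 of 15 was lower, the interleukin 7 receptor Il7r, and 14 were not called. Fewer cells of a type and less RNA per cell cannot be told apart in such samples, and the part of cell makeup in the results below was not tested. For some genes the change is given again from a fit over all 9 arrays with each array's macrophage mean as a covariate. In that fit limma called 0 probe sets in either direction (unadjusted p under 0.05 for 2084 higher and 1318 lower). The macrophage means of day 2 and day 7 do not overlap, so the fit cannot separate macrophage content from age. Its slope rests on differences between arrays of the same day, which were widest at day 7. Of the genes named as called in the following paragraphs, 16 of 65 that rose had less than 50% of their change in that fit. So had 27 of 74 that fell. The change from that fit is not given beside all of these genes. Among risen genes without it, Pdgfrb was at 0.14 ± 0.46, Cdh11 at 0.30 ± 0.40 and Wnt2 at 0.30 ± 0.62. Rxrg was at 0.50 ± 0.63, Myh10 at 0.50 ± 0.47, Pck1 at 0.69 ± 0.82 and Dnah7 at 0.83 ± 0.46. Among fallen genes without it, Gng2 was at -0.18 ± 0.41, Alas1 at -0.54 ± 0.40 and Ampd3 at -0.86 ± 0.44.

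**Figure D1:**
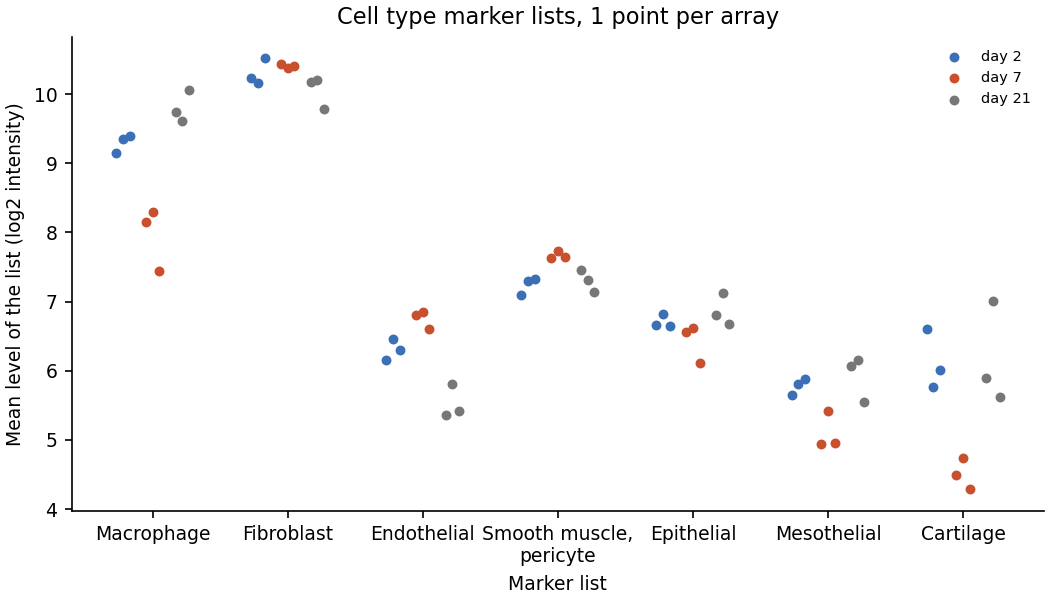
Mean log2 intensity of 7 lists of cell type markers, with 1 point per array and 3 arrays for each of days 2, 7 and 21. The macrophage list lies between 7.44 and 8.29 on the day 7 arrays, under every day 2 and day 21 array, while the fibroblast list stays between 10.16 and 10.52 on the day 2 and day 7 arrays.

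From day 2 to day 7, 8 of 22 genes of the fibroblast growth factor family and its targets rose and 0 fell, and 6 of 27 guidance genes rose and 1 fell. In the other direction, 10 of 32 amino acid transporters fell and 3 rose, 9 of 35 genes of transfer RNA charging and ribosome assembly fell and 0 rose, and 13 of 39 NRF2 targets and antioxidant enzymes fell and 1 rose. In each of these lists most members were not called. Over all 31042 probe sets, 1707 were called higher (5.5%) and 1068 lower (3.44%), together 8.94%. Taking the brightest probe set of each gene, 998 of 14217 genes were higher (7.02%) and 627 lower (4.41%), together 11.4%, and these shares are the background for all list counts. Falls were larger than rises, with 330 called genes lower and 201 higher by at least 2-fold, and with median changes of -1.04 and 0.79 among the called. The balance depended on scale: 61.5% of the called probe sets were higher as deposited, 53.5% (1645 higher, 1427 lower) after quantile normalization and 41.5% (902 higher, 1272 lower) with each array centred on its median. The median change of all genes was 0.07, 0.03 and -0.02 under the same 3 scalings. A call is described here as held where it kept its direction and an adjusted p under 0.05 without any 1 of the 6 arrays and under both other scalings, which was so for 333 of the higher and 314 of the lower genes. All genes named as risen or fallen have arrays that do not overlap between the days. Among all 14217 genes this was so for 3001 in the higher and 1695 in the lower direction, so it was more common than a call. Calls made by only part of a gene's probe sets are marked with most such genes. They were also partial for Sspn (2 of 5 probe sets), Hlf (2 of 4), and Srxn1, Fgf12, Slit2 and Abcg1 (2 of 3 each). The same was true of Slfn4, Gna14, Gng2, Adora2a, Gpd2 and Aldh6a1 (1 of 2 each).

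**Figure D2:**
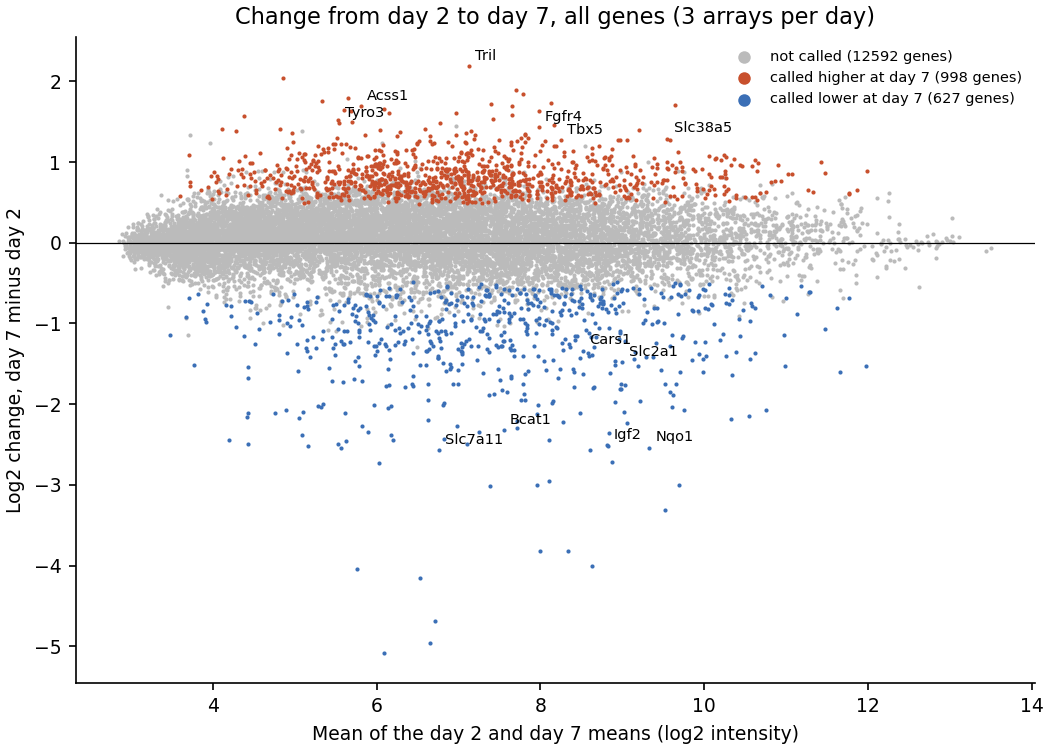
Log2 change from day 2 to day 7 (vertical) against the mean of the day 2 and day 7 levels (horizontal, log2 intensity) for 14217 genes, each by its brightest probe set. Red points are the 998 genes called higher and blue points the 627 called lower, and the blue points reach further from 0 than the red.

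The 12 held rises with the smallest p included genes of signalling, cilia and metabolism. Tyro3, a receptor tyrosine kinase for Gas6 and protein S, stood at log2 4.76, 4.78 and 4.87 on the day 2 arrays and at 6.32, 6.30 and 6.22 on the day 7 arrays. Its rise of 1.48 ± 0.16 (adjusted p = 0.000653) lay far outside the spread within either day. Acss1, which makes acetyl-CoA from acetate in mitochondria, was at 5.01, 4.89 and 4.99 and then at 6.58, 6.36 and 7.01, a rise of 1.69 ± 0.17 (adjusted p = 0.000516). Apc2, a relative of the Wnt regulator Apc, rose by 1.64 ± 0.18, called by both of its probe sets. Kcns3, a modulatory subunit of voltage-gated potassium channels, rose by 1.46 ± 0.16, the secreted glycoprotein Olfm1 by 1.60 ± 0.19 and Sspn, of the dystrophin complex, by 1.22 ± 0.15. Ift172, which carries cargo along the cilium, rose by 1.11 ± 0.14, and Pimreg, a gene of dividing cells, by 1.33 ± 0.16 from 4.95, 5.26 and 5.38 to 6.57, 6.63 and 6.38. Tril, Rprml, Hsd11b2 and Dnah7 made up the 12. Dnah7 is itself the 1 called member of the ciliated cell list, so the list's mean level, given above, includes its rise. The median change of that list was 0.19, and the part of ciliated cells in the rises of Ift172 and Dnah7 was not tested.

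The 12 held falls with the smallest p were largely genes of oxidant defence and of immune cells. Srxn1, which repairs oxidised peroxiredoxins, went from 10.05, 9.99 and 10.22 to 7.81, 7.60 and 7.32, a change of -2.51 ± 0.17 (adjusted p = 7.55e-05). The quinone reductase Nqo1 went from 10.36, 10.49 and 10.93 to 8.19, 8.07 and 7.91 (-2.54 ± 0.17, adjusted p = 7.55e-05), and Hmox1, which opens the haem ring, from 11.64, 11.51 and 11.72 to 9.63, 9.56 and 9.26 (-2.14 ± 0.17). Gclc, the catalytic subunit of glutathione synthesis, changed by -1.59 ± 0.14 and the aldo-keto reductase Akr1b8 by -2.57 ± 0.20. The interleukin 7 receptor Il7r, the serum amyloid Saa3, the chemokine Ccl9, the deubiquitinase Usp18, Slfn4, the DNA-binding Nabp1 and the lipid carrier Fabp4 made up the 12. Saa3 was at 6.14 on average at day 21, below its day 7 level, while the other 11 stood between 7.47 and 12.21 at day 21, above their day 7 levels.

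**Figure D3:**
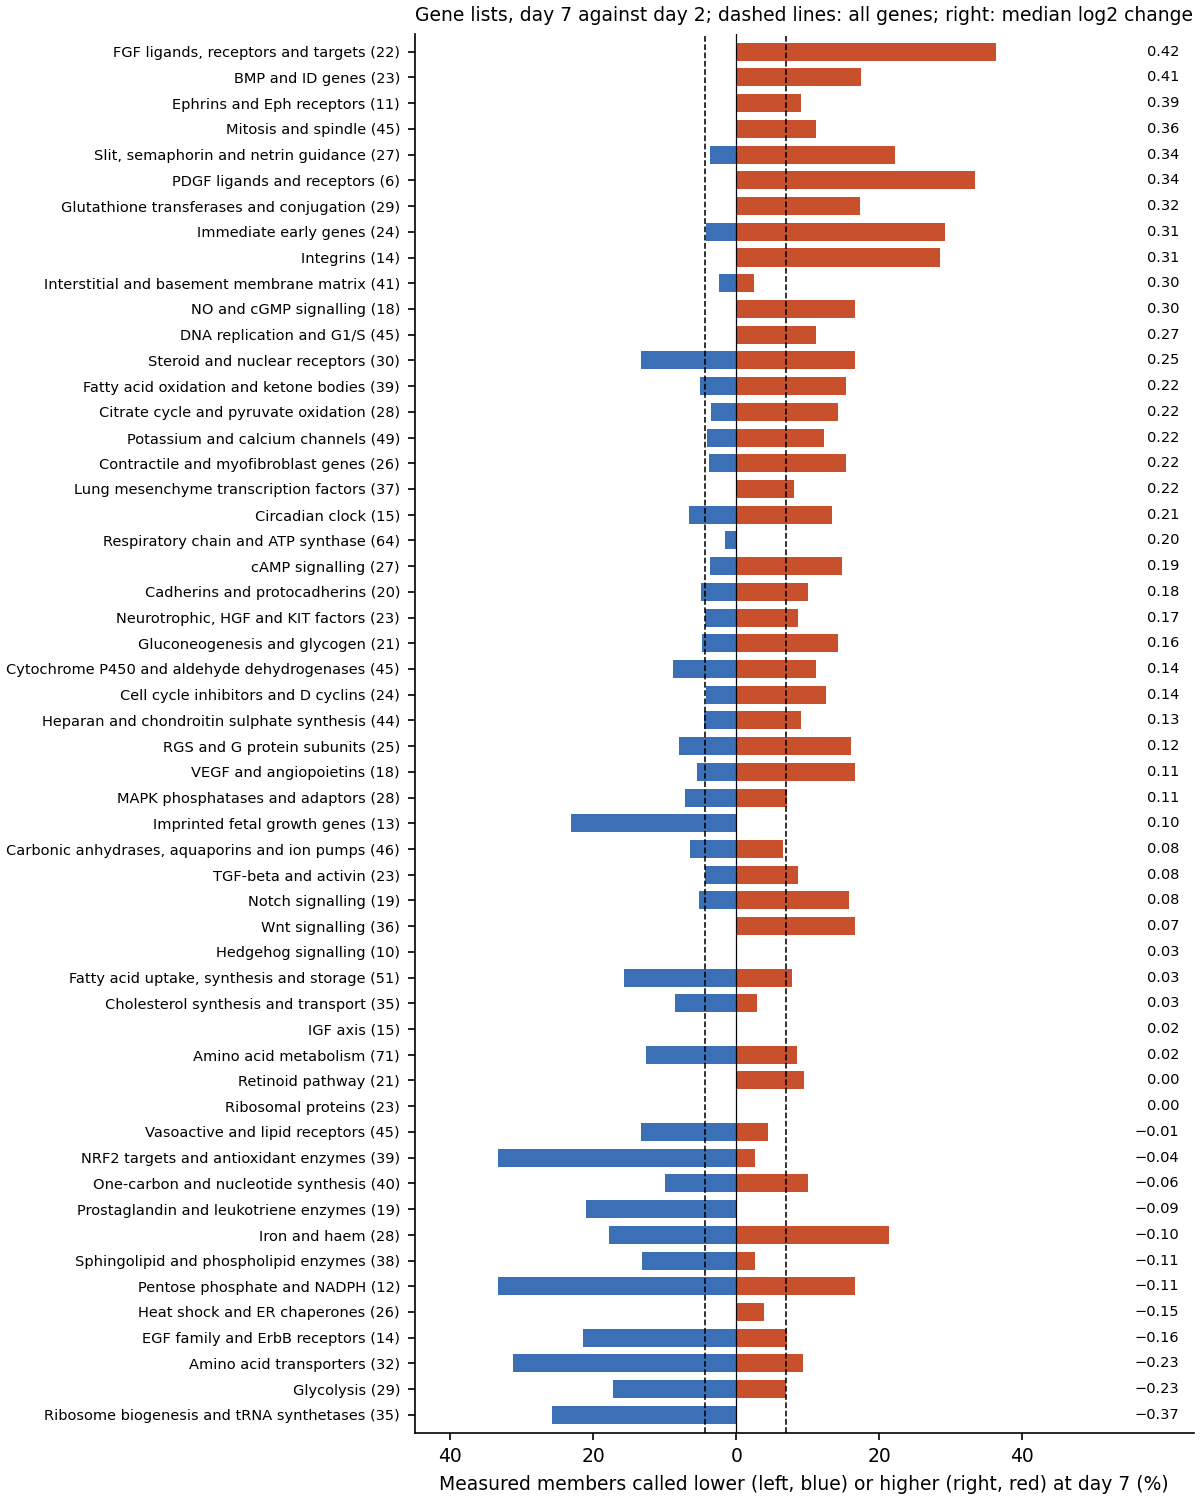
Share of the measured members of each signalling, growth, structural and metabolic list (number measured in brackets) called higher (red, to the right) or lower (blue, to the left) at day 7, in percent, ordered by the median log2 change printed at the right. Dashed lines mark the 7.02% and 4.41% of all genes, and the list of ribosome biogenesis and transfer RNA synthetases has the lowest median (-0.37) and no member called higher.

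Fibroblast growth factors signal through receptor tyrosine kinases to ERK and to ETS transcription factors, and Sprouty proteins damp the pathway. Of 22 measured genes of this family 8 rose and 0 fell, 7 of the rises held, and the median change was 0.42 against 0.07 for all genes. Among ligands, Fgf1 went from 4.61, 4.40 and 4.63 to 5.62, 5.24 and 5.63 (0.95 ± 0.18), by 1 of its 3 probe sets, and Fgf12, an intracellular member that binds sodium channels, rose by 1.33 ± 0.22. Fgf18, a ligand of the alveolar stage, rose from 5.33, 5.22 and 6.09 to 6.27, 6.89 and 6.31 (0.94 ± 0.24, adjusted p = 0.0332), a call lost without day 2 replicate 1, day 2 replicate 2 or day 7 replicate 2 (adjusted p = 0.0985, 0.13 and 0.127), with the litter number as a block (0.0521) and on the 6 arrays alone (0.0612). Among receptors, Fgfr3 went from 8.54, 8.36 and 8.03 to 9.73, 9.27 and 9.74, by 1 of its 2 probe sets, and Fgfr4 from 7.46, 7.28 and 7.05 to 8.81, 8.32 and 8.95. The other receptors were not called, with Fgfr1 at -0.02 ± 0.25 and Fgfr2 at 0.20 ± 0.17. Among targets, Spry4 rose from 7.28, 6.85 and 6.65 to 8.08, 7.74 and 8.30 (1.11 ± 0.20) and Etv4 from 5.65, 5.09 and 5.13 to 6.25, 6.13 and 6.64 (1.05 ± 0.20). With the macrophage covariate the changes were 1.38 ± 0.59 for Fgf18, 0.43 ± 0.46 for Fgf12, 0.41 ± 0.41 for Fgf1, 0.83 ± 0.46 for Fgfr4, 0.30 ± 0.51 for Fgfr3, 0.18 ± 0.39 for Spry4 and 0.15 ± 0.40 for Etv4.

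Held calls in other growth factor families were few, as they were among all genes (333 rises and 314 falls of 14217). Nrg1, a ligand of ErbB receptors, fell from 6.82, 6.66 and 7.14 to 5.39, 5.63 and 5.91 (-1.23 ± 0.20, adjusted p = 0.00426), by 2 of its 8 probe sets, and its change with the covariate was -1.92 ± 0.45. It was the held call of a list of 14 genes in which 3 fell and 1 rose. Egfr and Erbb2, receptors of that family, were not called (-0.62 ± 0.41 and 0.16 ± 0.19). No gene of 15 in the insulin-like growth factor axis beside Igf2 was called by limma, with Igf1 at -0.17 ± 0.24 and Igf1r at 0.02 ± 0.26, although 4 were higher and 1 lower at an unadjusted p under 0.05. Igf2, counted here with the imprinted genes, fell from 9.78, 9.76 and 10.67 to 7.45, 7.86 and 7.38, by 1 of its 4 probe sets. Of 6 genes of platelet-derived growth factors 2 rose and neither call held. The receptor Pdgfrb went from 6.40, 6.37 and 6.95 to 7.19, 7.27 and 7.76 (0.83 ± 0.21, adjusted p = 0.0276), by 1 of its 3 probe sets, and lost its call without day 2 replicate 1 or 2 or day 7 replicate 2 or 3 (adjusted p = 0.0859, 0.108, 0.054 and 0.0862), with median centring (0.0909) and on the 6 arrays alone (0.0505). Pdgfra, the receptor of septal fibroblasts, was at 8.77, 8.76 and 8.55 and then at 9.34, 9.14 and 8.97, groups that do not overlap but were not called (0.46 ± 0.23, adjusted p = 0.279). In the transforming growth factor beta and activin list 2 of 23 rose and 1 fell, and in the BMP and ID list 4 of 23 rose, with a median of 0.41, and none of these 7 calls held.

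Of 36 Wnt genes 6 rose, 1 of them held, and 0 fell, with a median change of 0.07, that of all genes. The held call was Nkd1, an inhibitor that the pathway itself induces, which rose from 8.07, 8.21 and 8.14 to 8.99, 8.98 and 8.76 (0.77 ± 0.15, adjusted p = 0.0075) on all 3 of its probe sets. The ligand Wnt5a rose from 5.45, 5.32 and 5.63 to 6.89, 7.12 and 6.04 and Wnt2 from 6.58, 6.16 and 6.90 to 7.67, 7.48 and 8.36. Day 7 replicate 3 was the lowest of its day for Wnt5a and the highest for Wnt2. Wnt2 lost its call without day 2 replicate 2 (adjusted p = 0.0662) and Wnt5a without day 2 replicate 2 or day 7 replicate 1 or 2 (adjusted p = 0.0693, 0.0643 and 0.0709). Of 19 Notch genes 3 rose and 1 fell, and the held call was the target Hey1 (7.21, 7.42 and 6.74 to 8.10, 8.02 and 7.97, change 0.91 ± 0.18), while the receptors Notch1 and Notch3 were at -0.02 ± 0.22 and 0.18 ± 0.16. No hedgehog gene of 10 was called by limma (at an unadjusted p under 0.05, 0 were higher and 1 lower), with the target Gli1 at 0.16 ± 0.20. Among 18 genes of vascular growth 3 rose and 1 fell, and the held call was Vegfd, a ligand of lymphatic and blood vessel receptors (8.13, 7.65 and 7.96 to 8.85, 8.61 and 8.71). Vegfa was at 0.13 ± 0.22. Endothelial marker lists moved in the same comparison, as given above.

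Guidance cues, best known for steering axons, also act on vessels and mesenchyme. Of 27 such genes 6 rose and 1 fell, with 3 rises and the fall held and a median of 0.34. Robo2, a receptor of Slit ligands, rose from 7.71, 7.62 and 7.35 to 8.82, 8.77 and 8.69 (1.20 ± 0.19, adjusted p = 0.00382) on all 3 of its probe sets, alongside its ligand Slit2, while Robo1 was at 0.18 ± 0.16. Sema5a, a transmembrane semaphorin, rose from 7.91, 7.94 and 7.82 to 8.95, 8.87 and 8.87 (1.01 ± 0.19), by 1 of its 4 probe sets. Sema4a, a semaphorin that immune cells also carry, fell from 8.90, 9.27 and 8.91 to 7.90, 7.69 and 6.78 (-1.57 ± 0.25). It was lowest on day 7 replicate 3, which was also the lowest day 7 array for macrophage, endothelial, epithelial and cartilage markers. Its change was -0.24 ± 0.46 with the covariate. With it Robo2 was at 0.82 ± 0.46, Sema5a at 0.58 ± 0.45 and Slit2, from a change of 1.70, at 0.32 ± 0.47. Of 23 neurotrophic, HGF and KIT family genes 2 rose and 1 fell, all held. Gfra2, the receptor of neurturin, went from 8.11, 8.10 and 8.05 to 9.20, 8.87 and 9.48 (1.10 ± 0.19), by 1 of its 2 probe sets. Axl fell from 9.72, 9.86 and 9.89 to 9.15, 9.09 and 8.79 (-0.81 ± 0.15) as its close relative Tyro3 rose. With the covariate Gfra2 was at 0.19 ± 0.36 and Axl at -0.31 ± 0.32, and Tyro3 at 1.53 ± 0.39.

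**Figure D4:**
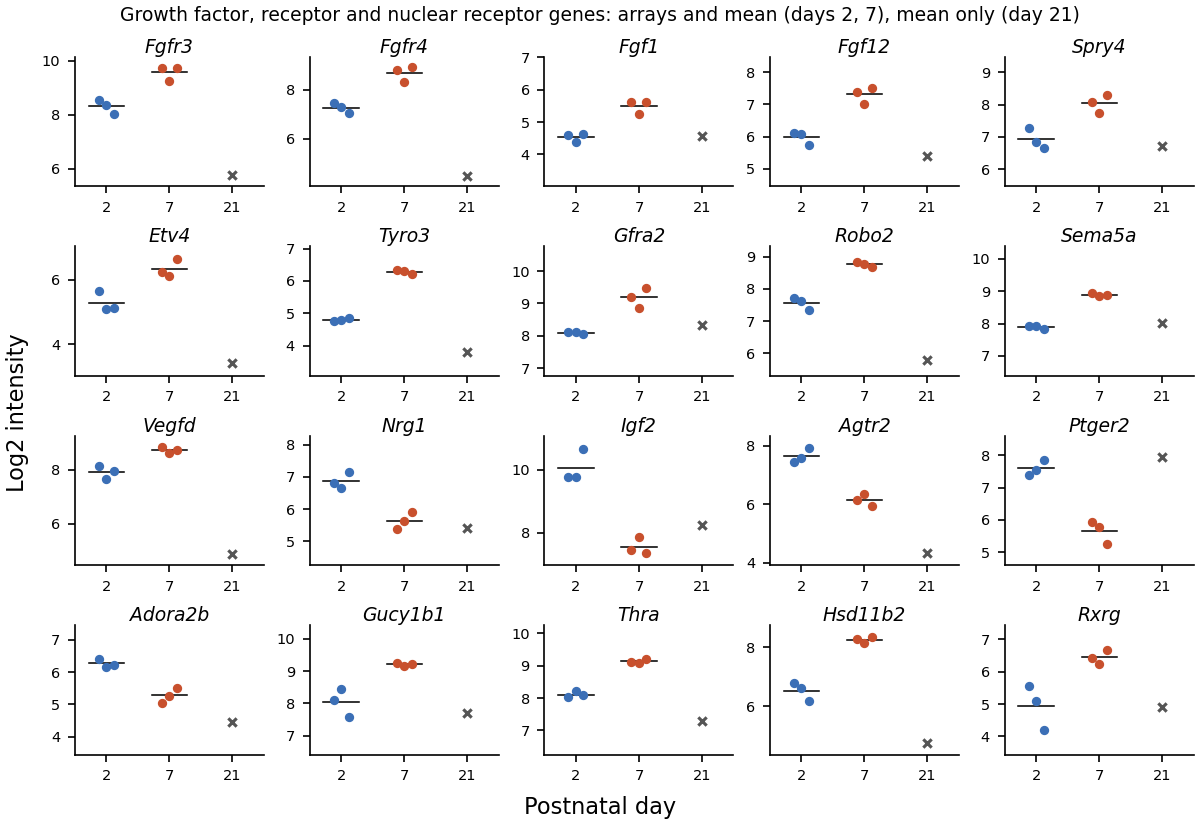
Log2 intensity of 20 genes of growth factors, receptors and nuclear receptors at days 2 and 7 (1 point per array, a line at the mean of the 3) and the mean at day 21 (cross). Vertical ranges differ between panels, and in every panel the day 2 and day 7 points do not overlap.

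Among receptors of vasoactive and lipid mediators falls outnumbered rises. Of 45 such receptors 6 fell and 2 rose, 4 and 1 of them held. Ptger2, a prostaglandin E2 receptor that raises cAMP, fell from 7.40, 7.54 and 7.85 to 5.95, 5.77 and 5.25 (-1.94 ± 0.23, adjusted p = 0.0011). Agtr2, the angiotensin receptor of fetal mesenchyme, fell from 7.45, 7.57 and 7.93 to 6.14, 6.35 and 5.93 (-1.51 ± 0.18) on both of its probe sets and was at 4.31 at day 21. Both adenosine receptors that raise cAMP fell, Adora2b from 6.42, 6.17 and 6.23 to 5.05, 5.26 and 5.52 (adjusted p = 0.00511) and Adora2a from 6.57, 6.65 and 7.08 to 5.88, 5.81 and 5.38 (-1.08 ± 0.21). With the covariate their changes were -1.69 ± 0.35 for Adora2b, -0.87 ± 0.40 for Agtr2, -0.69 ± 0.41 for Ptger2 and -0.06 ± 0.39 for Adora2a. Agtr1b rose from 3.17, 3.25 and 3.11 to 4.61, 4.17 and 3.99, about the low end of all values. Of 19 genes of prostaglandin and leukotriene enzymes 4 fell, 0 rose and 15 were not called, with Ptgs2, the inducible cyclooxygenase, from 9.61, 9.80 and 10.34 to 8.11, 8.66 and 7.70 (-1.76 ± 0.30), and the prostaglandin D synthase Hpgds (-1.19 ± 0.25) held and at -1.17 ± 0.73 and -0.47 ± 0.57 with the covariate. Ptgs1, the constitutive form, was at -0.09 ± 0.18.

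Inside the cell, 3 of 18 genes of nitric oxide and cGMP signalling rose and 0 fell. Gucy1b1, a subunit of the guanylate cyclase that nitric oxide activates, went from 8.09, 8.46 and 7.58 to 9.25, 9.16 and 9.23 (1.17 ± 0.23, adjusted p = 0.0096) on both of its probe sets and changed by 1.41 ± 0.57 with the covariate. Pericytes also express it, and it is itself the 1 held rise in the list of smooth muscle and pericyte markers given above. Of 25 RGS proteins and G protein subunits 4 rose and 2 fell, with Rgs16, a brake on G protein signalling (7.39, 7.28 and 6.92 to 8.58, 8.65 and 8.26, change 1.30 ± 0.19), Gna14 (1.22 ± 0.25) and Gng2 (-0.97 ± 0.20) held. Of 28 genes around the MAP kinases 2 rose and 2 fell, and the held calls were the phosphatase Dusp2, from 9.09, 9.20 and 9.69 to 8.24, 7.88 and 7.68 (-1.39 ± 0.21), and Map2k3, the kinase of p38, from 10.21, 10.41 and 10.19 to 9.33, 9.48 and 9.50 (-0.84 ± 0.14). With the covariate these were -0.58 ± 0.44 and -1.03 ± 0.34. Among 24 immediate early genes, which also answer to cell handling, 7 rose and 1 fell. Trpv2, a cation channel of macrophages among other cells, fell by 1.36 on the log2 scale (SE 0.26) and was at -0.11 ± 0.48 with the covariate. It was the held call of a list of 49 potassium and calcium channel genes, of which 6 rose and 2 fell. Kcns3, whose held rise is given above, was not in that list.

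Of 30 nuclear receptors and enzymes that set their ligands 5 rose and 4 fell. Thra, a thyroid hormone receptor, went from 8.02, 8.23 and 8.09 to 9.13, 9.09 and 9.21 (1.03 ± 0.14, adjusted p = 0.00183), by 1 of its 3 probe sets, and was at 1.06 ± 0.34 with the covariate. Its relative Thrb went from 7.69, 7.62 and 7.39 to 6.97, 6.61 and 6.79 (-0.77 ± 0.16, adjusted p = 0.0131) on 3 of its 4 probe sets, a call lost without day 2 replicate 2 or day 7 replicate 2 (adjusted p = 0.0533 and 0.0594). Hsd11b2, which inactivates glucocorticoid, rose from 6.80, 6.62 and 6.18 to 8.29, 8.14 and 8.34, while the receptors of glucocorticoid and mineralocorticoid, Nr3c1 and Nr3c2, were at 0.25 ± 0.16 and 0.28 ± 0.17. Among 21 retinoid genes 2 rose, and Rxrg, a partner receptor of many nuclear receptors, held, from 5.56, 5.09 and 4.19 to 6.42, 6.23 and 6.68 (1.50 ± 0.28), by 1 of its 2 probe sets. Tbx5, a transcription factor of lung mesenchyme, rose from 7.78, 7.51 and 7.53 to 8.82, 9.12 and 8.70 (1.27 ± 0.16) and was the held call among 37 such factors of which 3 rose and 0 fell. In the circadian clock list 2 of 15 rose and 1 fell. Bhlhe41, a repressor of the clock, fell from 9.76, 9.88 and 10.01 to 8.37, 8.27 and 7.56 (-1.81 ± 0.28, -0.30 ± 0.47 with the covariate), and Hlf, an output factor of the clock, rose from 6.70, 6.76 and 6.28 to 7.76, 7.68 and 7.65. The labels give no hour of sampling, and Bmal1 and Clock were not called (-0.46 ± 0.21 and 0.01 ± 0.18).

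Of 45 genes of DNA replication 5 rose and 0 fell (median 0.27), and of 45 genes of mitosis 5 rose and 0 fell (median 0.36), with 2 held in each. On the 6 arrays alone 3 of the replication genes rose. Pola2, a subunit of the polymerase that starts new strands, went from 7.14, 6.99 and 6.99 to a mean of 8.03 with 8.10 on the highest array (0.99 ± 0.14, adjusted p = 0.00186) and Rpa1, which binds single-stranded DNA, from 6.80, 6.84 and 6.88 to 7.58, 7.56 and 7.77 (0.80 ± 0.14). Aurkb, a mitotic kinase, went from 7.08, 7.06 and 6.89 to 7.86, 7.84 and 7.68 and Top2a, which untangles DNA, from 7.74, 7.72 and 7.78 to 8.57, 8.43 and 8.65. Some common proliferation markers did not pass, with Pcna at -0.01 ± 0.13, Mcm2 at -0.20 ± 0.23 and Mki67 at 0.03 ± 0.19. Of 24 cell cycle inhibitors and D cyclins 3 rose and 1 fell. Those held were Cdkn2c, an inhibitor of CDK4 and CDK6, from 6.38, 6.53 and 6.73 to 7.38, 7.62 and 7.66 (1.01 ± 0.15), by 1 of its 2 probe sets, and the pocket protein Rbl2 from 7.09, 7.06 and 6.74 to 7.87, 7.68 and 7.87 (0.84 ± 0.16).

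Of 41 interstitial and basement membrane genes 1 rose and 1 fell, both held, and on the 6 arrays alone 6 rose and 1 fell. Loxl1, an oxidase that cross-links elastin, rose from 11.00, 11.00 and 11.13 to 11.87, 11.83 and 11.99 (0.86 ± 0.16), and the elastic fibre protein Fbln2 fell from 6.35, 6.23 and 6.96 to 5.30, 5.48 and 5.07 (-1.23 ± 0.23). The collagens Col1a1 and Col1a2 were at -0.23 ± 0.26 and -0.05 ± 0.19. Of 14 integrins 4 rose (28.6% against 7.02% of all genes), none of them held. Cdh11, the cadherin of mesenchyme, rose from 10.21, 9.88 and 9.79 to 11.02, 10.73 and 11.02 (0.96 ± 0.18), by 2 of its 3 probe sets, and Cdh22 fell from 9.35, 9.16 and 8.90 to 7.27, 7.19 and 7.08 (-1.96 ± 0.26, -2.47 ± 0.64 with the covariate), by 1 of its 2. They were the held calls of 20 cadherins, of which 2 rose and 1 fell. Of 26 contractile genes 4 rose and 1 fell. Ppp1r14a, an inhibitor of myosin phosphatase, went from 9.21, 8.97 and 9.18 to 10.09, 10.23 and 10.40 (1.12 ± 0.15) and the non-muscle myosin Myh10 from 10.13, 10.09 and 10.09 to 11.21, 11.06 and 11.12 (1.03 ± 0.20), both held, while the myofibroblast markers Acta2 and Tagln were at 0.19 ± 0.21 and 0.37 ± 0.27.

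Amino acid importers were among the genes that fell. Of 32 measured transporters 10 fell and 3 rose, 7 and 1 of them held, with a median change of -0.23. Slc7a11, the light chain that imports cystine for glutathione, fell from 7.77, 7.98 and 8.38 to 6.07, 5.44 and 4.92 (-2.57 ± 0.26, adjusted p = 0.000516). Among cationic amino acid carriers, Slc7a2 fell from 5.91, 6.07 and 6.49 to 4.36, 4.20 and 3.60 (-2.10 ± 0.23, its day 7 level about the low end), Slc7a3 from 6.14, 5.94 and 5.65 to 4.78, 4.60 and 4.44 (-1.31 ± 0.20) and Slc7a1 from 8.86, 8.82 and 9.40 to 7.72, 7.77 and 8.13 (-1.15 ± 0.22, by 2 of its 3 probe sets). Slc7a8, a carrier of large neutral amino acids, went from 7.56, 7.48 and 7.61 to 6.36, 6.06 and 5.77 and the glutamine carrier Slc1a5 from 8.06, 8.20 and 8.02 to 7.10, 7.42 and 6.91. Slc15a3, a peptide carrier of lysosomes that myeloid cells express, changed by -1.95 ± 0.26. The held rise was Slc38a5, a carrier of glutamine and small neutral amino acids, from 9.10, 8.75 and 8.87 to 10.10, 10.01 and 10.47 (1.29 ± 0.21), with a day 21 mean of 4.13. Macrophage markers fell in the same comparison, and with the covariate the changes were -1.91 ± 0.49 for Slc7a1, -1.62 ± 0.57 for Slc7a11, -1.52 ± 0.51 for Slc7a3, -1.11 ± 0.40 for Slc7a8, -0.83 ± 0.39 for Slc7a2, -0.61 ± 0.39 for Slc1a5 and -0.41 ± 0.41 for Slc15a3.

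Of 35 measured transfer RNA synthetases and ribosome assembly genes 9 fell and 0 rose, 5 of them held, the median change was -0.37, and 33 of the 35 had a change below 0 (unadjusted p under 0.05 for 19 lower and 0 higher). Cars1, which charges cysteine, fell from 9.18, 9.16 and 9.21 to 7.71, 7.92 and 7.92 (-1.34 ± 0.17, adjusted p = 0.00136) on all 4 of its probe sets. Iars1, for isoleucine, went from 7.66, 7.69 and 8.10 to 6.63, 6.71 and 6.81, by 1 of its 2 probe sets, Tars1, for threonine, from 9.69, 9.69 and 9.90 to 8.69, 8.68 and 9.04, and Nars1, for asparagine, from 10.39, 10.36 and 10.50 to 9.62, 9.67 and 9.52. Rrs1, an assembly factor of the large ribosomal subunit, went from 7.35, 7.27 and 7.54 to 6.13, 6.26 and 6.49. The day 2 and day 7 arrays are apart by more than the spread of either day for each of these 5. With the covariate the list's median was -0.64 (median SE 0.39), and Cars1 was at -1.76 ± 0.39, Rrs1 at -1.87 ± 0.46 and Tars1 at -1.45 ± 0.34. The ribosomal proteins themselves had a median change of 0.00, with 0 of 23 called by limma (0 in either direction at an unadjusted p under 0.05).

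Of 71 measured enzymes of amino acid metabolism 9 fell and 6 rose, 5 and 3 of them held, and the median was 0.02. Bcat1, the cytosolic branched-chain transaminase, fell from 8.17, 8.44 and 9.52 to 6.30, 6.61 and 6.27 (-2.32 ± 0.28, by 1 of its 2 probe sets, -1.76 ± 0.69 with the covariate). The synthetase of asparagine, Asns, fell from 7.31, 7.33 and 7.50 to 6.36, 6.22 and 5.90 (-1.22 ± 0.16, adjusted p = 0.00139, and -0.71 ± 0.34 with the covariate). The arginine enzymes Arg1 and Ass1 fell from 8.81, 9.18 and 8.60 to 7.13, 6.78 and 5.80 and from 6.10, 5.40 and 7.55 to 4.65, 4.35 and 4.07. Both are also expressed by activated macrophages, and with the covariate they were at -0.38 ± 0.52 and -0.81 ± 1.02. Risers were Maob, a monoamine oxidase (4.64, 5.25 and 4.42 to 6.63, 6.39 and 5.86, change 1.52 ± 0.24), Cth, which makes cysteine from cystathionine (5.55, 5.07 and 4.42 to 6.34, 6.09 and 6.27, change 1.22 ± 0.26), and Bckdk, the kinase that holds back branched-chain oxidation (7.35, 7.32 and 7.44 to 8.23, 8.38 and 8.37, change 0.95 ± 0.16). Cth, which makes cysteine, and Slc7a11, which imports cystine, moved in opposite directions. In one-carbon and nucleotide synthesis 4 of 40 rose and 4 fell (1 and 3 with the litter number as a block). Mthfd2, the mitochondrial folate dehydrogenase, fell from 7.88, 8.01 and 8.39 to 6.59, 6.98 and 6.92 (-1.27 ± 0.18, -1.24 ± 0.43 with the covariate), Ampd3, which deaminates AMP, changed by -1.89 ± 0.23, and Nt5e, which makes adenosine outside the cell, rose by 0.87 ± 0.16.

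Several of the genes that fell are known targets of ATF4, which is induced when amino acids are short and binds the amino acid response element TGATGNAA, and 3 promoters are shown because the letters lie close to the start of genes that fell. The stretches run 5′ to 3′ on the strand of the gene up to the base before the annotated start in RefSeq on GRCr8, in lower case with the match in capitals. They are chr12:11664418-11664487 on the plus strand (Slc7a1), chr17:15193653-15193716 on the minus strand (Iars1) and chr2:62114803-62114869 on the minus strand (Tars1).
Slc7a1: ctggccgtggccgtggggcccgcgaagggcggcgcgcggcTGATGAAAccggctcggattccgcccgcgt
Iars1: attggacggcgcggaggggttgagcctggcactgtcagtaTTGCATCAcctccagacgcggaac
Tars1: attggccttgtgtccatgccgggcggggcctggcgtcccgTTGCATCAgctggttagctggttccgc
The matches lay 30, 24 and 27 bases before the start, on the gene's strand in Slc7a1 and on the opposite strand in Iars1 and Tars1. Both strands of the 250 bases before each start were searched. The letters were in 4 of the 22 promoters available for listed genes of amino acid transport, metabolism, one-carbon synthesis and transfer RNA charging that fell (18.2%), in 6 of 110 that were not called (5.45%) and in 0 of 9 that rose. Of the promoters of all measured genes 221 of 10945 held them (2.02%). The fourth promoter with a match among those that fell was that of Nars1, 14 bases before the start. The letters also lay 17 bases before the start of Mars1, the methionine synthetase, which was not called (-0.11 ± 0.15). A match is a description of the letters and not evidence of binding, and no test was made of these shares.

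**Figure D5:**
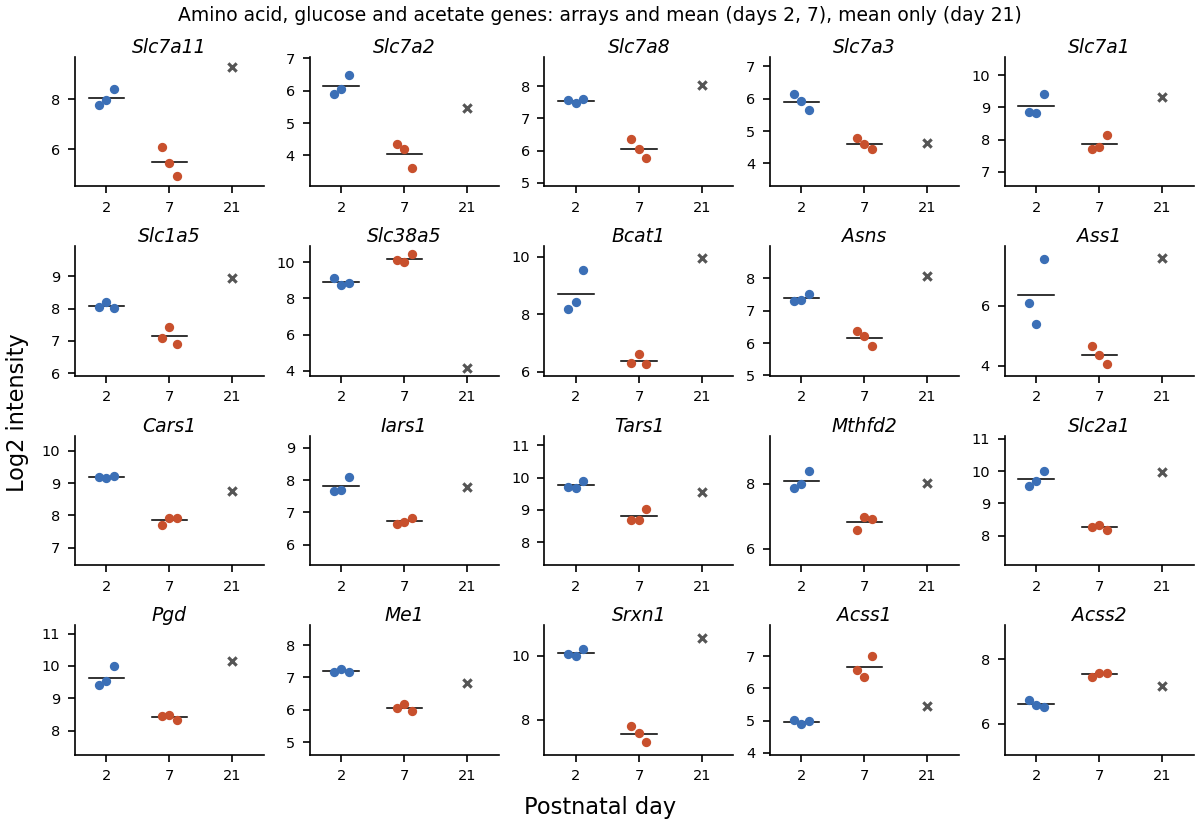
Log2 intensity of 20 genes of amino acid transport and metabolism, transfer RNA charging, glucose and NADPH supply and acetate use at days 2 and 7 (1 point per array, a line at the mean of the 3) and the mean at day 21 (cross). Vertical ranges differ between panels, and 17 of the 20 genes are lower at day 7, Slc38a5, Acss1 and Acss2 being higher.

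Of 29 glycolysis genes, glucose and monocarboxylate carriers included, 5 fell and 2 rose, with a median of -0.23. Slc2a1, the basal glucose carrier, went from 9.55, 9.68 and 10.00 to 8.27, 8.33 and 8.18 (-1.48 ± 0.16, adjusted p = 0.000543) and was at -1.16 ± 0.36 with the covariate. The monocarboxylate carrier Slc16a1 fell from 8.03, 7.80 and 8.07 to 6.88, 7.15 and 6.97 (-0.97 ± 0.15, -0.93 ± 0.36 with the covariate), by 1 of its 2 probe sets, and Slc16a3, which exports lactate, from 7.23, 7.89 and 8.32 to 6.38, 6.29 and 5.51 (-1.76 ± 0.30, -0.05 ± 0.49 with the covariate), while Slc16a7 rose from 4.82, 4.61 and 4.47 to 5.68, 5.74 and 5.47 (0.99 ± 0.19, 0.88 ± 0.47 with the covariate). The hexokinases Hk1 and Hk2 were not called (-0.62 ± 0.20 and -0.44 ± 0.21). Of 12 genes of the pentose phosphate pathway and NADPH supply 4 fell and 2 rose. Pgd, of the pentose phosphate pathway, went from 9.40, 9.53 and 9.99 to 8.44, 8.48 and 8.34 (-1.22 ± 0.18), malic enzyme Me1 from 7.17, 7.26 and 7.17 to 6.04, 6.19 and 5.96 (-1.13 ± 0.14, both probe sets) and Idh1 from 9.43, 9.12 and 9.18 to 8.30, 8.37 and 7.87 (-1.06 ± 0.19, by 1 of its 2 probe sets). H6pd, which makes NADPH inside the endoplasmic reticulum, rose from 5.80, 6.03 and 6.15 to 6.92, 6.92 and 6.95 (0.93 ± 0.14). With the covariate Pgd, Me1, Idh1 and H6pd were at -0.78 ± 0.43, -0.84 ± 0.31, -0.42 ± 0.41 and 1.00 ± 0.35.

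Of 28 genes of the citrate cycle and pyruvate oxidation 4 rose and 1 fell, none of them held (2 and 0 with the litter number as a block), with citrate synthase Cs at -0.12 ± 0.16. Of 64 respiratory chain genes 0 rose and 1 fell, with a median of 0.20, and the unadjusted p was under 0.05 for 9 higher and 1 lower. The fall was that of Cox6a2, a muscle form of a cytochrome oxidase subunit (-0.77 ± 0.22), and its call was lost without day 2 replicate 1 or 3 or day 7 replicate 2 or 3 (adjusted p = 0.0986, 0.158, 0.168 and 0.0991), with the litter number as a block (0.068) and on the 6 arrays alone (0.061). In fatty acid oxidation 6 of 39 rose and 2 fell, and the held call was Bdh2, a hydroxybutyrate dehydrogenase, from 6.34, 6.19 and 5.56 to 7.35, 7.38 and 7.81 (1.48 ± 0.21, adjusted p = 0.00216), while the carnitine transferases Cpt1a and Cpt2 were at 0.13 ± 0.16 and 0.08 ± 0.16. Pck1, of gluconeogenesis, rose from 5.11, 4.31 and 3.92 to 6.16, 5.66 and 6.81.

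Of 51 genes of fatty acid uptake, synthesis and storage 8 fell and 4 rose, 6 and 3 of them held, and 39 were not called. The held falls were Lpl, the secreted lipase, from 10.43, 10.63 and 10.62 to 9.08, 8.82 and 8.12 (-1.89 ± 0.25), Plin2, which coats lipid droplets, from 12.10, 11.89 and 12.01 to 11.03, 10.89 and 10.90 (-1.06 ± 0.18, both probe sets), the fatty acid carriers Fabp4 and Fabp5, the lysosomal lipase Lipa and the mitochondrial glycerol phosphate dehydrogenase Gpd2 (-0.86 ± 0.18). The held rises were Acss1, its cytosolic counterpart Acss2 from 6.75, 6.59 and 6.52 to 7.46, 7.58 and 7.57 (0.91 ± 0.15), and the desaturase Fads1 from 7.43, 7.52 and 7.21 to 8.49, 8.40 and 8.54 (1.09 ± 0.15, adjusted p = 0.00174). With the covariate Lpl was at -0.39 ± 0.37, Lipa at -0.31 ± 0.38, Plin2 at -0.76 ± 0.43, Gpd2 at -0.05 ± 0.34, Fabp5 at -1.16 ± 0.58 and Fabp4 at -1.35 ± 0.50, while Acss1 was at 0.92 ± 0.34, Acss2 at 0.65 ± 0.35 and Fads1 at 1.04 ± 0.35. Macrophages express Lpl, Lipa and Fabp4, and their markers fell in the same comparison. Of these, Fabp4 had the largest change both without the covariate (-3.31 ± 0.33) and with it (-1.35 ± 0.50). The fit with the covariate cannot separate macrophage content from age, and the part of macrophages in these falls was not tested. Of 38 sphingolipid and phospholipid enzymes 5 fell and 1 rose, 4 of the falls held. Pla2g2a, a secreted phospholipase, fell from 6.28, 7.00 and 6.72 to 4.69, 4.54 and 4.46 (-2.10 ± 0.24, -2.24 ± 0.60 with the covariate), Sgpl1, which cleaves sphingosine 1-phosphate, from 7.84, 7.70 and 8.31 to 6.88, 6.65 and 5.98 (-1.45 ± 0.25, -0.12 ± 0.43 with the covariate), and the sphingomyelin synthase Sgms2 and the acyltransferase Lpcat3 changed by -1.06 and -1.10 (-0.22 ± 0.37 and -0.63 ± 0.47 with the covariate). In cholesterol synthesis and transport 3 of 35 fell and 1 rose, and the exporter Abcg1 was the held fall (-1.23 ± 0.25, -0.04 ± 0.47 with the covariate).

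The NRF2 list joins targets of that transcription factor with antioxidant enzymes in general. It had 13 falls and 1 rise among 39 genes, 8 of the falls held. Its median was -0.04. Besides those named above, Osgin1 fell from 5.48, 5.79 and 6.42 to 4.77, 4.63 and 4.03 (-1.42 ± 0.28), peroxiredoxin Prdx5 from 10.84, 11.00 and 11.20 to 9.91, 10.04 and 9.65 (-1.15 ± 0.18), the haem carrier Slc48a1 from 7.61, 7.68 and 8.23 to 6.65, 6.85 and 6.74 (-1.10 ± 0.19) and thioredoxin reductase Txnrd1 from 11.08, 10.94 and 10.91 to 10.38, 10.10 and 10.11 (-0.78 ± 0.15, both probe sets). With the covariate the changes of Nqo1, Srxn1, Hmox1, Gclc and Txnrd1 were -2.16 ± 0.41, -1.85 ± 0.35, -1.50 ± 0.35, -1.40 ± 0.33 and -0.78 ± 0.35, and those of Prdx5 and Osgin1 -0.34 ± 0.34 and -0.49 ± 0.64. Slc7a11, Pgd and Me1, described above, are known NRF2 targets as well. The core of the antioxidant response element, TGACNNNGC on either strand, was in the 250 bases before the start of 3 of 9 available promoters of NRF2 list genes that fell (33.3%), 2 of 19 not called (10.5%) and 1347 of 10945 of all measured genes (12.3%), a description on few promoters with no test. Those 3 promoters belong to other members of the list, not to the genes named here.

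Of 29 genes of glutathione transferases and conjugation 5 rose and 0 fell, with a median of 0.32, and the held calls were Gstt3, from 7.23, 7.07 and 7.47 to 9.27, 8.48 and 9.23, and Gsta4, which clears lipid aldehydes, from 9.31, 9.32 and 8.75 to 10.01, 10.01 and 10.26 (0.97 ± 0.18). Gstm1 and Gstp1 were not called (0.10 ± 0.16 and 0.28 ± 0.15). Of 45 cytochrome P450 and aldehyde dehydrogenase genes 5 rose and 4 fell. Cyp1a1, the classic target of the aryl hydrocarbon receptor, fell from 5.61, 5.92 and 5.92 to 4.39, 4.56 and 4.50 (-1.34 ± 0.15, adjusted p = 0.000913, and -1.38 ± 0.37 with the covariate), Cyp2u1 rose from 7.32, 7.23 and 7.02 to 8.24, 8.34 and 8.73 (1.25 ± 0.17), and Aldh6a1 by 0.86 ± 0.17. In the iron and haem list 6 of 28 rose and 5 fell (5 and 3 on the 6 arrays alone). Alas1, the rate-limiting enzyme of haem synthesis outside red cells, fell from 9.48, 9.68 and 9.51 to 8.47, 8.39 and 8.22 (-1.19 ± 0.18), and Slc39a8, a zinc and iron importer, from 7.02, 7.06 and 7.00 to 5.38, 5.44 and 4.98 (-1.76 ± 0.18, adjusted p = 0.000516, and -1.35 ± 0.41 with the covariate). Of the later steps of haem synthesis, Urod rose from 7.87, 7.98 and 7.64 to 8.50, 8.59 and 8.78 (0.79 ± 0.15) and Fech from 6.43, 6.51 and 6.57 to 7.15, 7.18 and 7.34 (0.72 ± 0.14), calls that kept an adjusted p under 0.05 without each array and lost it with median centring (adjusted p = 0.0548 and 0.0729). Of 46 carbonic anhydrases, aquaporins and ion pump genes 3 rose and 3 fell. The pump regulator Fxyd5 fell from 8.34, 8.55 and 8.99 to 7.12, 7.39 and 6.48 (-1.63 ± 0.25, -0.13 ± 0.38 with the covariate), and Car3, a carbonic anhydrase of fat and muscle, rose from 7.26, 6.78 and 6.22 to 8.44, 8.27 and 9.24 (0.36 ± 0.51 with the covariate).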

How the data were processed

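Gene expression was measured on single-colour Affymetrix rat arrays, 1 per sample. The authors deposited an intensity for each probe set on a linear scale, and the submitters' processing notes name RMA and the affy package without a version. Probe set definitions and filters were not given in the sources used here. RMA corrects background and brings arrays to a common distribution, so changes of weakly expressed genes can come out too small. The deposited medians still differ between arrays (37.9 to 50.4), and what step left or made that difference is unstated, so results were recomputed under 2 other scalings. Log2 was taken, 57 AFFX control probe sets were left out, and 31042 were tested in R 4.3.3 with limma 3.58.1. The fit had a mean per day over all 9 arrays, 6 residual degrees of freedom and 5.69 from the prior, and two-sided p-values were adjusted by Benjamini-Hochberg over all probe sets. The script was tested on simulated data.

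Of the probe sets 20826 had 1 gene symbol in the platform annotation, 436 had several and 9780 none. The brightest of each gene represented it. Promoters were matched by symbol to RefSeq on GRCr8, 10945 of 14217 genes.

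The 66 lists, with 1768 of 1997 entries measured, and the genes described were chosen with earlier results of these data known, and some genes are in several lists. Genes could be named if they were among the 12 held calls with the smallest p in each direction (uninformative symbols left out), the 5 largest called members of a list in a direction, a list's leading pair, or any member of a list described in depth. Cox6a2, Urod, Fech and Mars1 were chosen after seeing their values. Alternatives were each array left out, the litter number as a block, the 6 arrays alone, quantile normalization, median centring, an offset of 16, a filter on dim probe sets, eBayes with trend and robust settings, the macrophage covariate, the mean of all probe sets of a gene and a threshold of 0.01. Samples of a day are separate litters, so p-values measure the spread between pooled litters. The labels number the litters 1 to 3 on each day. They do not state whether litter 1 of day 2 and litter 1 of day 7 are the same litter, so the number is not in the reported fit, and calls that end with it as a block are given beside the gene.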

Additional observations from a re-analysis of the deposited data

How the results depend on the processing

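Of the 139 genes named above as called, 134 to 138 kept their call and direction without any 1 array, and all kept it with quantile normalization or the offset of 16, and each array whose removal ended a call is named beside that gene. With 1 array left out, 850 to 1307 probe sets were higher and 673 to 804 lower, and 486 to 693 genes higher and 384 to 473 lower, lowest without day 2 replicate 2 in each case. Counts of higher probe sets moved by over 1.5 times without day 2 replicate 2 (850), day 2 replicate 3 (979), day 7 replicate 1 (893) or day 7 replicate 2 (1017), and the count of higher genes also without day 7 replicate 3 (658). Counts of lower probe sets moved as far without day 2 replicate 2 (673), day 2 replicate 3 (684) or day 7 replicate 2 (709), and of lower genes without day 2 replicate 2 (384) or 3 (405). Each such fit has fewer arrays. Median centring left 902 probe sets and 481 genes higher, and a threshold of 0.01 left 557 probe sets higher and 453 lower, as a stricter threshold must. With the macrophage covariate there were 0 higher and 0 lower among probe sets and among genes, the direction of all 139 was kept, and SEs rose, for example from 0.17 to 0.41 for Nqo1. With the replicate block, 1504 probe sets were higher and 999 lower and 137 of the 139 calls were kept, those of Fgf18 (adjusted p = 0.0521) and Cox6a2 (adjusted p = 0.068) being lost. Deviations from the day means of same-numbered day 2 and day 7 samples correlated at 0.405, 0.0766 and 0.223, and each of these samples correlated best with its own number on the other day, while the titles give the numbers as litters 1 to 3 on every day without stating whether they are the same litters. Among lists with 3 or more calls in a direction, the block took rises from 4 to 2 in cAMP signalling and from 3 to 5 among both endothelial and pericyte markers, besides the lists given in the report. With the 6 arrays alone 136 of the 139 calls were kept, those of Fgf18, Pdgfrb and Cox6a2 being lost, and rises in heparan and chondroitin sulphate synthesis and in one-carbon synthesis went from 4 to 2 in each. The other alternatives kept the counts within 1.5 times the reported ones. Probe sets near the low end of log2 4.25 (47 called higher, 39 lower) are limited by signal over background.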
